A study of Mus musculus with 28 samples.

Results

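The genes described here were next to silent in the polyA libraries of wild-type mouse embryonic stem cells (ESCs) and were detected in every Ehmt1 KO library. A gene was a member if it had at most 2 counts in each of the 4 wild-type (WT) polyA libraries and at least 0.5 CPM (the gene's count scaled to a library total of 1000000) in each of the 4 Ehmt1 KO libraries. Genes whose symbols start with Magea, Zscan4, Usp17l or Tcstv, and Wfdc15a, Zfp352, Asz1 and Smc1b, were left out. The rule found 108 members among the 24116 genes of the count table, and 6 further genes that met both thresholds were left out by symbol (Magea3, Magea4, Magea5, Magea6, Magea8 and Magea10). The members were thus chosen by their WT and Ehmt1 KO counts, so those values are given as a description with no test.

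All libraries came from RGd2 cells, female mouse ESCs that carry a Rex1:GFPd2-IRES-Blasticidin reporter, grown in N2B27 medium with the inhibitors CHIR99021 and PD0325901 (2i) and gelatin. Cells were taken in 2i (ESC) or after 2i was withdrawn for 16 h or 32 h, which starts the exit from naive pluripotency. The polyA libraries (TruSeq mRNA) covered ESC and 32 h and held 4 genotypes with 2 cell lines each: WT (the lines Ehmt1_WT and Zic2_WT), Ehmt1/Zic2 KO (called double KO), Zic2 KO and Ehmt1 KO. The ribosomal RNA-depleted libraries (ScriptSeq) covered ESC, 16 h and 32 h and held WT (the lines WT and Zfp281_WT) and Zfp281 KO, again with 2 lines each. Each replicate was a different line or clone sequenced at each stage, so the spread includes differences between clones, and which part of each gene was altered was not given in the sources used here.

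Ehmt1 encodes GLP, which with its partner G9a (Ehmt2) places the mono- and dimethyl marks on lysine 9 of histone H3 (H3K9) that go with silent chromatin. In ESCs this pathway is known for keeping germline genes, some retroviral elements and lineage genes off, often together with DNA methylation. Zfp281 is a zinc finger transcription factor that acts in the exit from naive pluripotency, and Zic2 is a zinc finger factor active in the later, primed state.

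PolyA libraries held 19013882 to 28777604 counts and the ribosomal RNA-depleted ones 18086421 to 36365192. Ehmt1 was at 78.0 to 151 CPM in polyA WT, 17.6 to 31.4 CPM in Ehmt1 KO and 25 to 31.4 CPM in double KO. Counts of Zic2 and Zfp281 were not lower in every library labelled with their knockout, so they do not check those labels. Pluripotency markers were expressed in each genotype, with all 10 of the list at 0.5 CPM or more in at least 1 library of each. Among the ribosomal RNA-depleted libraries, ESC and 32 h of the line Zfp281_WT differed from the rest: 89.1% and 86.9% of 1098 olfactory receptor genes had a count in it, against 11.1% to 24.6% in the other ribosomal RNA-depleted libraries of those stages and 8.65% to 12.4% at 16 h. Counts of called members that rest on that line at ESC and 32 h are given with and without it. Medians and counts of values above or below both WT lines are given only with it.

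Sequence next to the start of 5 members is shown first, because they span the range of CpG dinucleotides, the sites of DNA methylation, from none to the CpG-rich exceptions among the members. Each window runs 5′ to 3′ on the strand of the gene, from 250 to 11 bases before a start listed by RefSeq (build GRCm38.p6), and CpG dinucleotides are in capitals. Akr1c18 (chr13:4150657-4150896, minus strand) is the member of the AKR1C locus with the highest level, Ptprtos (chr2:162390563-162390802, plus strand) has no CpG, Tph2 (chr10:115185033-115185272, minus strand) is a neuronal gene, Trim43a (chr9:88580641-88580880, plus strand) is an early embryo gene and Tspan2os (chr3:102735428-102735667, minus strand) is one of the CpG-rich exceptions.
Akr1c18: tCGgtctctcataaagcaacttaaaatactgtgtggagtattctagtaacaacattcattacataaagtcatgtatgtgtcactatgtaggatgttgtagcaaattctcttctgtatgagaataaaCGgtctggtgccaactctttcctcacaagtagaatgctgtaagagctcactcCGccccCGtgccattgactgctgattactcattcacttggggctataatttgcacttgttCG
Ptprtos: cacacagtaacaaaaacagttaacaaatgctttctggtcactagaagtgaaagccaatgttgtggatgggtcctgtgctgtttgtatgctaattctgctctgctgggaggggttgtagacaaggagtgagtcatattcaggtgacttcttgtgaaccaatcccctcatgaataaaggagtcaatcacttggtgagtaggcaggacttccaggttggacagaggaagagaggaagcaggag
Tph2: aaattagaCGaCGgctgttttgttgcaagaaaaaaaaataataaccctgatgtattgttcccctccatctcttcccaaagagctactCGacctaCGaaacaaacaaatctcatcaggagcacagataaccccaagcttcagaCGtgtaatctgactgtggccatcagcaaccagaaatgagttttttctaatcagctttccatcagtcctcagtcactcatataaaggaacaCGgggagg
Trim43a: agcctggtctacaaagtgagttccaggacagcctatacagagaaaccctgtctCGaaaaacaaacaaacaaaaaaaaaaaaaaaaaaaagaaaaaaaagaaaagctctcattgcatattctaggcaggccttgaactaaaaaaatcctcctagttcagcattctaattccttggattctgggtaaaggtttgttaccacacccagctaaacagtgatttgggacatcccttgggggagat
Tspan2os: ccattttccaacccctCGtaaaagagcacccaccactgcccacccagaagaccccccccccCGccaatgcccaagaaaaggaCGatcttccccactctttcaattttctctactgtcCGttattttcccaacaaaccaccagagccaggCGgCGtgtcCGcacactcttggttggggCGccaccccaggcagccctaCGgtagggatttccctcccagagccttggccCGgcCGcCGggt

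Within these 240 bases Akr1c18 had 5 CpG, Ptprtos 0, Tph2 6, Trim43a 1 and Tspan2os 12. A promoter window of 300 bases (250 before to 50 after the start) was listed for 80 of the 108 members, and for genes with several listed starts the highest CpG count was used. Members had a median of 4 CpG (quartiles 2 and 7.25), the other genes silent in WT a median of 2 (5060 genes with a window) and all genes of the table a median of 15 (18042 genes). At 15 CpG or more were 3.75% of the members, 6.34% of the other silent genes and 50% of all genes. Highest among the members were Cdc20b and Golga7b with 23 CpG each and Tspan2os with 15, while C7, Nlrp4e and Ptprtos had 0. So the members sat with silent genes at the CpG-poor end, and no test was made of the gap of a few CpG between both sets.

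**Figure D1:**
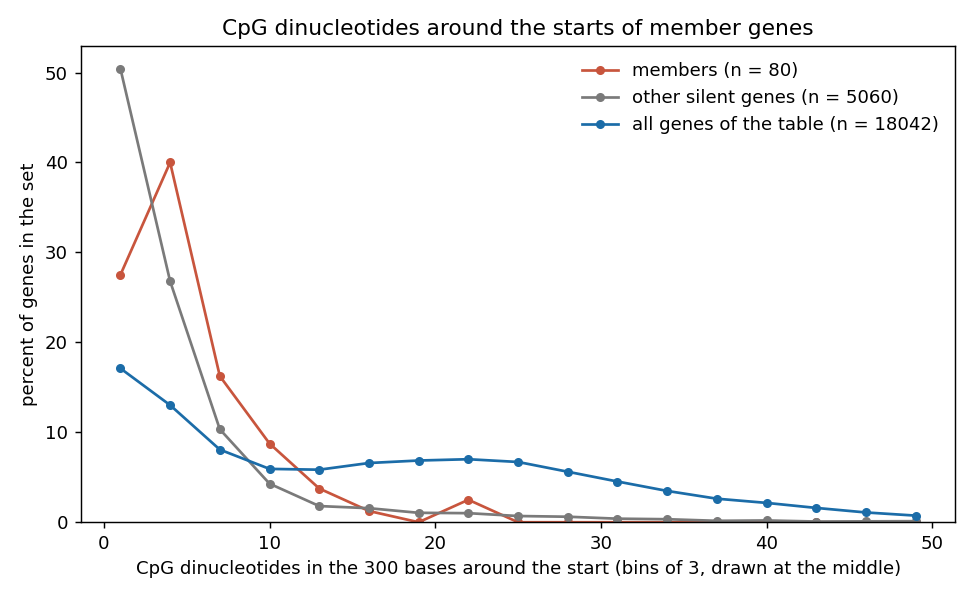
CpG dinucleotides in the 300 bases around the start (x axis, bins of 3) against the percent of genes in each set (y axis), for the 80 members with a listed window, 5060 other genes silent in WT and 18042 genes of the table. Members and other silent genes lie mostly below 15 CpG, and all genes reach further to the right.

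Letters of 3 motifs were counted on both strands of the same windows. The E-box CACGTG was in 7 of 80 member windows (8.75%), against 4.03% of the other silent genes and 9.19% of all genes. The E2F motif GGCGGGA was in 5 (6.25%), against 2.98% and 16.8%. The TATA-box letters TATAAA were in 11 (13.75%), against 27.3% and 14.3%, and the Tph2 window shown above holds them as tataaa. These shares describe letters, not bound sites.

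By annotation 89 members were protein-coding, 18 were long noncoding RNAs and 1 was a transcribed pseudogene. Noncoding RNAs made up 16.7% of the members, 8.64% of the table and 16.6% of the genes silent in WT. Grouped by what their products are known for, a grouping made after the values were seen, 19 members belong to immunity and defence, 15 to the germline and early embryo, 14 to metabolism and transport, 9 to neural and sensory tissue and 4 to epithelia, with 28 other protein-coding genes and 19 noncoding genes or pseudogenes. Thus the members did not form 1 tissue program: T cell receptor subunits (Cd3d, Cd3g), a serotonin-synthesis enzyme (Tph2), meiosis and testis genes (Meikin, Ldhc, Prame), liver genes (Cyp1a2, Mat1a, Abcb11) and keratinocyte genes (Krt23, Tgm5) were in the same set.

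**Figure D2:**
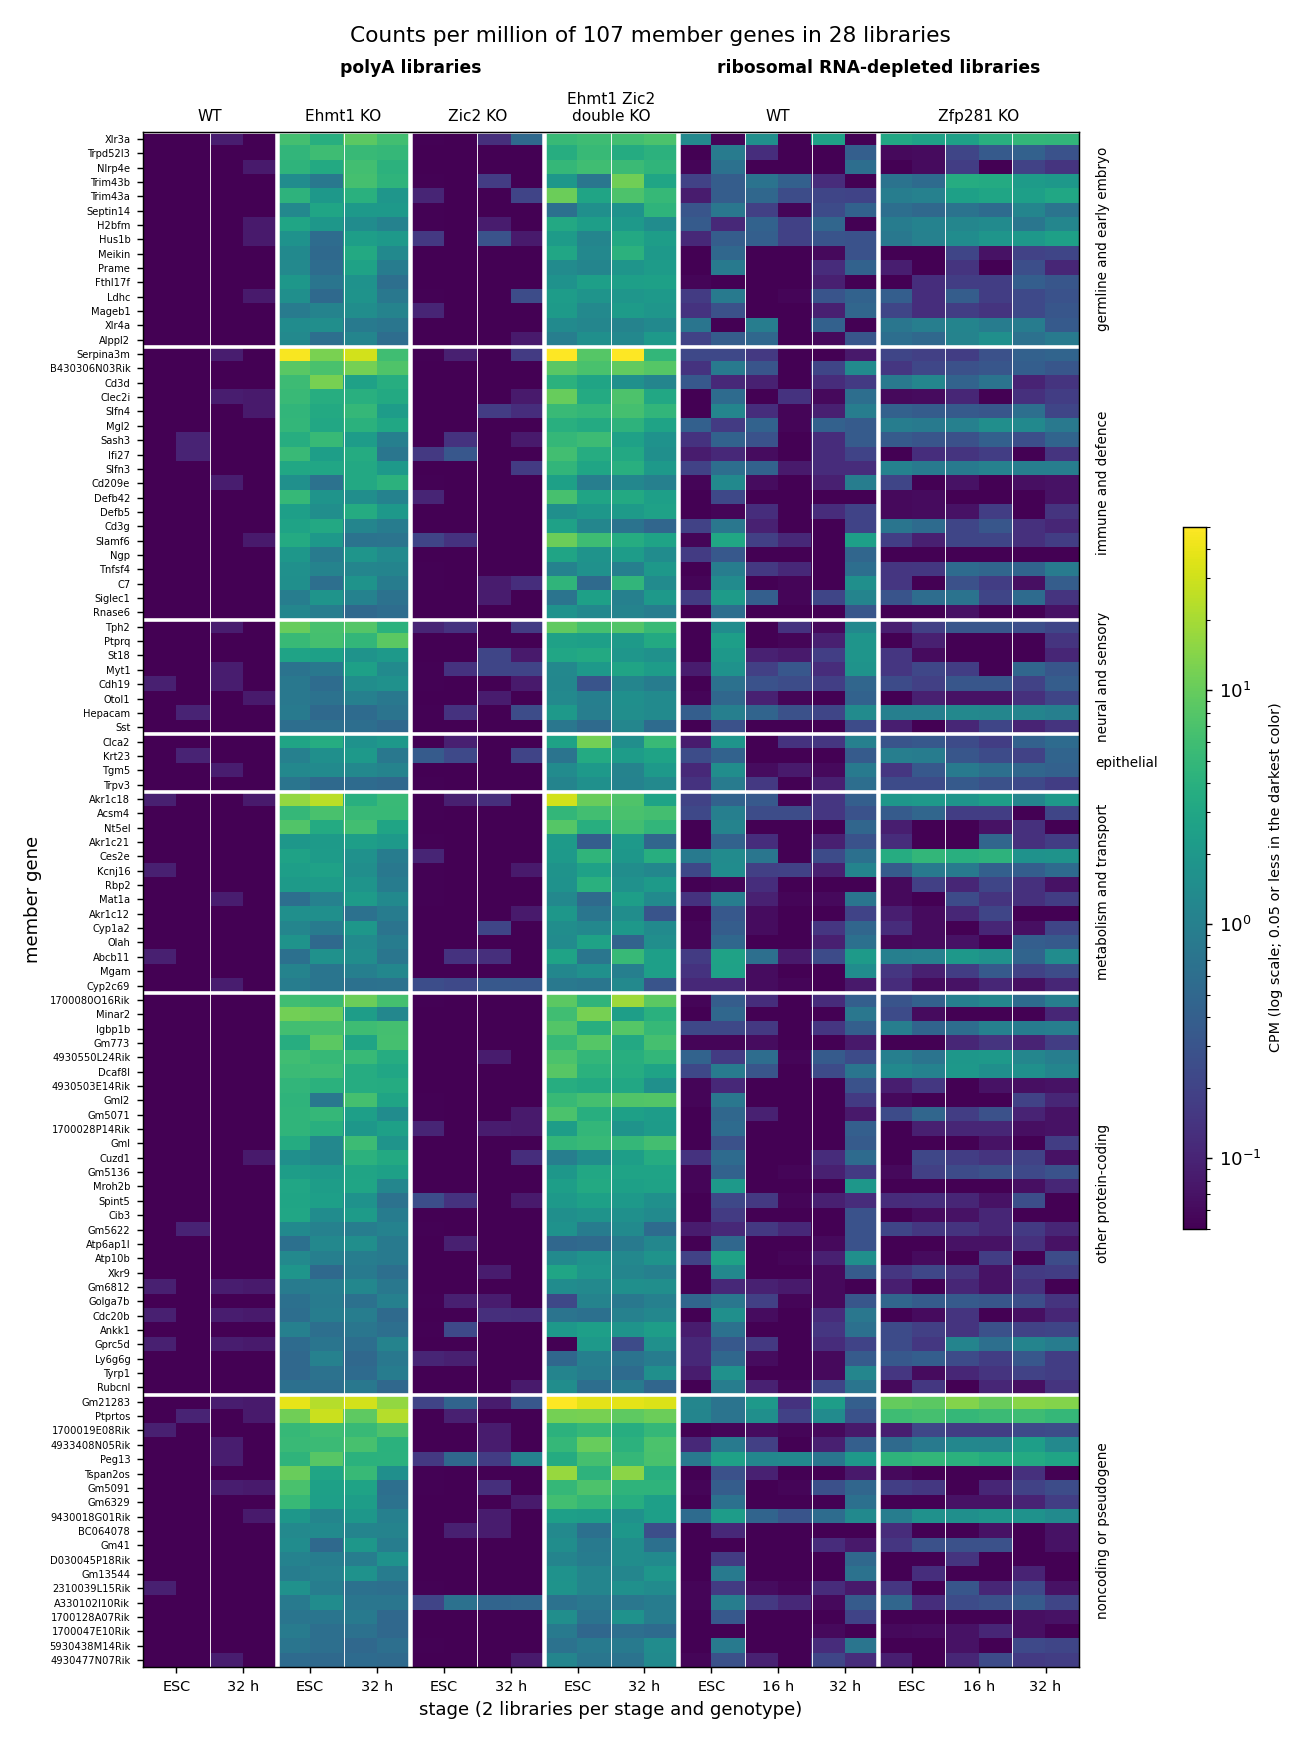
CPM (color, log scale) of 107 of the 108 members (rows, grouped by known role and ordered by mean level in Ehmt1 KO) in 28 libraries (columns, 2 for each genotype and stage). Most rows are bright in Ehmt1 KO and double KO and dark in polyA WT and Zic2 KO, with exceptions such as Gprc5d in double KO clone 1 and A330102I10Rik in Zic2 KO, and the line Zfp281_WT (the second WT column of ESC and of 32 h on the right) is brighter than the line WT beside it.

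In the libraries that chose them, members were low to moderate in level. Mean CPM in Ehmt1 KO was over 5 for 21 members, above 1 and up to 5 for 65, and at most 1 for 22, with a median of 1.83. The 12 highest held 40.4% of the members' summed CPM. These were Gm21283 (27.3), Serpina3m (24.1), Ptprtos (18), Akr1c18 (12.5), B430306N03Rik (8.63), Tph2 (7.25), 1700080O16Rik (7.14), Ptprq (6.35), Minar2 (6.29), Xlr3a (6.28), Igbp1b (6.16) and Cd3d (6.01), as mean CPM over 4 libraries. Per kilobase of exon, a scale that allows genes to be compared and that 96 members had, the order was Ptprtos (28.6 CPM per kb), Serpina3m (14), Defb5 (11.5), Akr1c18 (10.3) and 1700019E08Rik (7.12).

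The thresholds cut through a continuum. Lowest inside were Tyrp1 and Ly6g6g, at 0.509 CPM in their lowest Ehmt1 KO library, then Trpv3, Sst and 1700047E10Rik at 0.512. Nearest outside were C2cd6, Esp6 and Krt36 at 0.473 and Gm3143 and Gm13752 at 0.472. On the WT side 25 members had 0 counts in each of the 4 libraries, 45 reached 1 count and 38 reached 2. Requiring 0 counts left 25 genes and allowing 5 gave 178, while 0.25 CPM gave 183 and 1 CPM gave 47. As a share, the 108 members were 1.44% of the 7488 genes silent by the WT rule, and those silent genes were 31.0% of the table.

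Double KO libraries, which the rule did not use, were compared with Zic2 KO. Both sides thus carry the Zic2 KO label and 1 side also the Ehmt1 KO label. The filter and the spread were taken from all polyA libraries, WT and Ehmt1 KO among them. The p-values are therefore not fully independent of the rule. At ESC 106 of 108 members rose and none fell (19.0% of 15667 genes tested rose and 15.2% fell). At 32 h 105 rose and none fell (20% rose and 15.9% fell). All 108 members passed the filter on low counts, which a gene high in 1 genotype passes, and without any filter 105 rose at each stage (14% of genes rose and 10.5% fell at ESC, 14.7% and 11.6% at 32 h). The median log2 difference over the members was 6.98 at ESC and 6 at 32 h, against 0.01 and 0 over all genes tested. Since Zic2 KO counts were close to 0, fitted differences of this size depend on the prior count. Folds on summed counts are given for some of the named genes.

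Library by library the separation was close to complete. In 106 members the lowest of the 4 double KO values lay above the highest of the 4 Zic2 KO values, which held for 19.4% of all genes tested, and the exceptions were Gprc5d and Cyp2c69. Within a stage both double KO values lay above both Zic2 KO values for 107 members at ESC and 107 at 32 h (35.5% and 40.2% of genes). At least 0.5 CPM was reached by 95 members in all 4 double KO libraries, by no member in all 4 Zic2 KO libraries, and by 3 members in at least 1 Zic2 KO library. Of the 7380 other genes silent in WT, 55 (0.745%) were at 0.5 CPM or more in all 4 double KO libraries and 0 in all 4 Zic2 KO libraries. In Zic2 KO 18 members had 0 counts in all 4 libraries and 79 had at most 2 counts in each. Summed over the members, CPM was 1.80 to 2.95 in polyA WT, 4.25 to 6.93 in Zic2 KO, 252 to 408 in Ehmt1 KO and 325 to 502 in double KO.

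Levels in double KO are set beside those in Ehmt1 KO as a description, and the same ratios were not worked out for other genes. Mean CPM in double KO was within 2-fold of that in Ehmt1 KO for 97 members, with a median ratio of 1.22 (quartiles 1.01 and 1.56), and the ranks of the 108 members had a Spearman correlation of 0.89 across genes, which are not independent replicates and were limited in range by the rule. Lowest in this ratio was Cd3d (0.402) and highest was Slamf6 (3.32). The difference between these 2 genotypes was not tested because the Ehmt1 KO values chose the members.

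Among germline and early embryo genes all 15 rose at both stages (19.0% of all genes tested rose at ESC and 20% at 32 h). Nearly all members rose, so counts by role group follow from membership and are no result about a role. Xlr3a, an X-linked gene of the lymphocyte-regulated family expressed in germ cells, was at 5.28 and 5.89 CPM in double KO ESC, 6.12 and 7.02 at 32 h, and 0.0518, 0.0464, 0.127 and 0.533 CPM in the matching Zic2 KO libraries. Its Zic2 KO values were low at ESC and uneven at 32 h, with no overlap with double KO (log2 difference 6.67 ± 0.64 SE, adjusted p = 1.2e-05 at ESC). Nlrp4e, of an oocyte family of NLRP proteins, had 0 counts in all 4 Zic2 KO libraries and 5.01, 6.04, 5.56 and 4.53 CPM in double KO, at least 74.9-fold higher at ESC and at least 81.2-fold higher at 32 h when 3 counts stand in for the Zic2 KO sum. Meikin, a meiosis-specific kinetochore protein, had 0 counts there too and 2.98, 1.25, 4.20 and 2.11 CPM in double KO. Trim43a and Trim43b, known from the early embryo, reached 2.79 to 10.5 CPM and 0.748 to 11.3 CPM, and Trim43b at ESC was the less certain of the pair (log2 difference 4.64 ± 1.20 SE, adjusted p = 0.012, and 0.072 to 0.082 without either Zic2 KO library or the first double KO library).

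All 19 immune and defence genes rose at both stages (19.0% of all genes tested rose at ESC and 20% at 32 h). Cd3d and Cd3g, the delta and gamma chains of the T cell receptor complex, had 0 counts in all 8 WT and Zic2 KO polyA libraries. Cd3d was at 4.11 and 2.79 CPM in double KO ESC and 1.6 and 1.17 at 32 h, and Cd3g was at 2.62, 1.20, 0.695 and 0.491 CPM in the same libraries. Both were lower at 32 h than at ESC in each clone, and in Ehmt1 KO too Cd3d was at 5.65 and 12 CPM at ESC against 2.61 and 3.74 at 32 h. Cd3e, a neighbour that is not a member because WT expressed it, was at 6.34 to 9.80 CPM in double KO and 2.00 to 3.44 in Zic2 KO (log2 difference 1.55 ± 0.31 SE, adjusted p = 0.0023 at ESC). The other listed blood markers went both ways. Gata1 rose, from 0.139 to 0.633 CPM in Zic2 KO to 2.39 to 6.19 in double KO (log2 difference 3.62 ± 0.73 SE at ESC, adjusted p = 0.0024), and Tal1 fell (-2.80 ± 0.86 at ESC, adjusted p = 0.024). Itgam (4.92 to 17.4 CPM in double KO) did not pass, and the general leukocyte gene Ptprc (0.10 to 0.38 CPM) and the myeloid gene Lyz2 (0 in double KO) were near 0 in both genotypes. The 7 genes summed to 17.2 to 33.0 CPM in double KO and 11.2 to 30.8 in Zic2 KO, and their part in the members' values was not tested. Slfn4 and Slfn3, interferon-linked Schlafen genes, were at 4.76 to 6.50 and 2.04 to 4.74 CPM in double KO, and the beta-defensin Defb5 had 0 counts in every Zic2 KO library and 1.58 to 2.60 CPM in double KO.

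Serpina3m, a serine protease inhibitor, differed between clones. It was at 73.7 CPM in double KO clone 1 and 7.98 in clone 2 at ESC, and at 72.2 and 4.79 CPM at 32 h, so it exceeded 4-fold between clones at both stages while both clones were above Zic2 KO (0.0518 to 0.164 CPM; adjusted p = 0.0046 at ESC and 0.0044 at 32 h). Without the first Zic2 KO library at 32 h its adjusted p was 0.050. Gprc5d, an orphan G protein-coupled receptor, was the reverse, at 0 and 2.10 CPM at ESC and 0.243 and 1.59 at 32 h in clones 1 and 2, and did not pass the test at 32 h (adjusted p = 0.060, and 0.030 by DESeq2). Its call at ESC (adjusted p = 0.035) was lost with no filter on low counts (0.082), without double KO clone 2 and without either Zic2 KO library. These were the only members over 4-fold apart in the same direction at both stages (0.1 CPM added to each value), and 67 were within 2-fold at both stages.

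**Figure D3:**
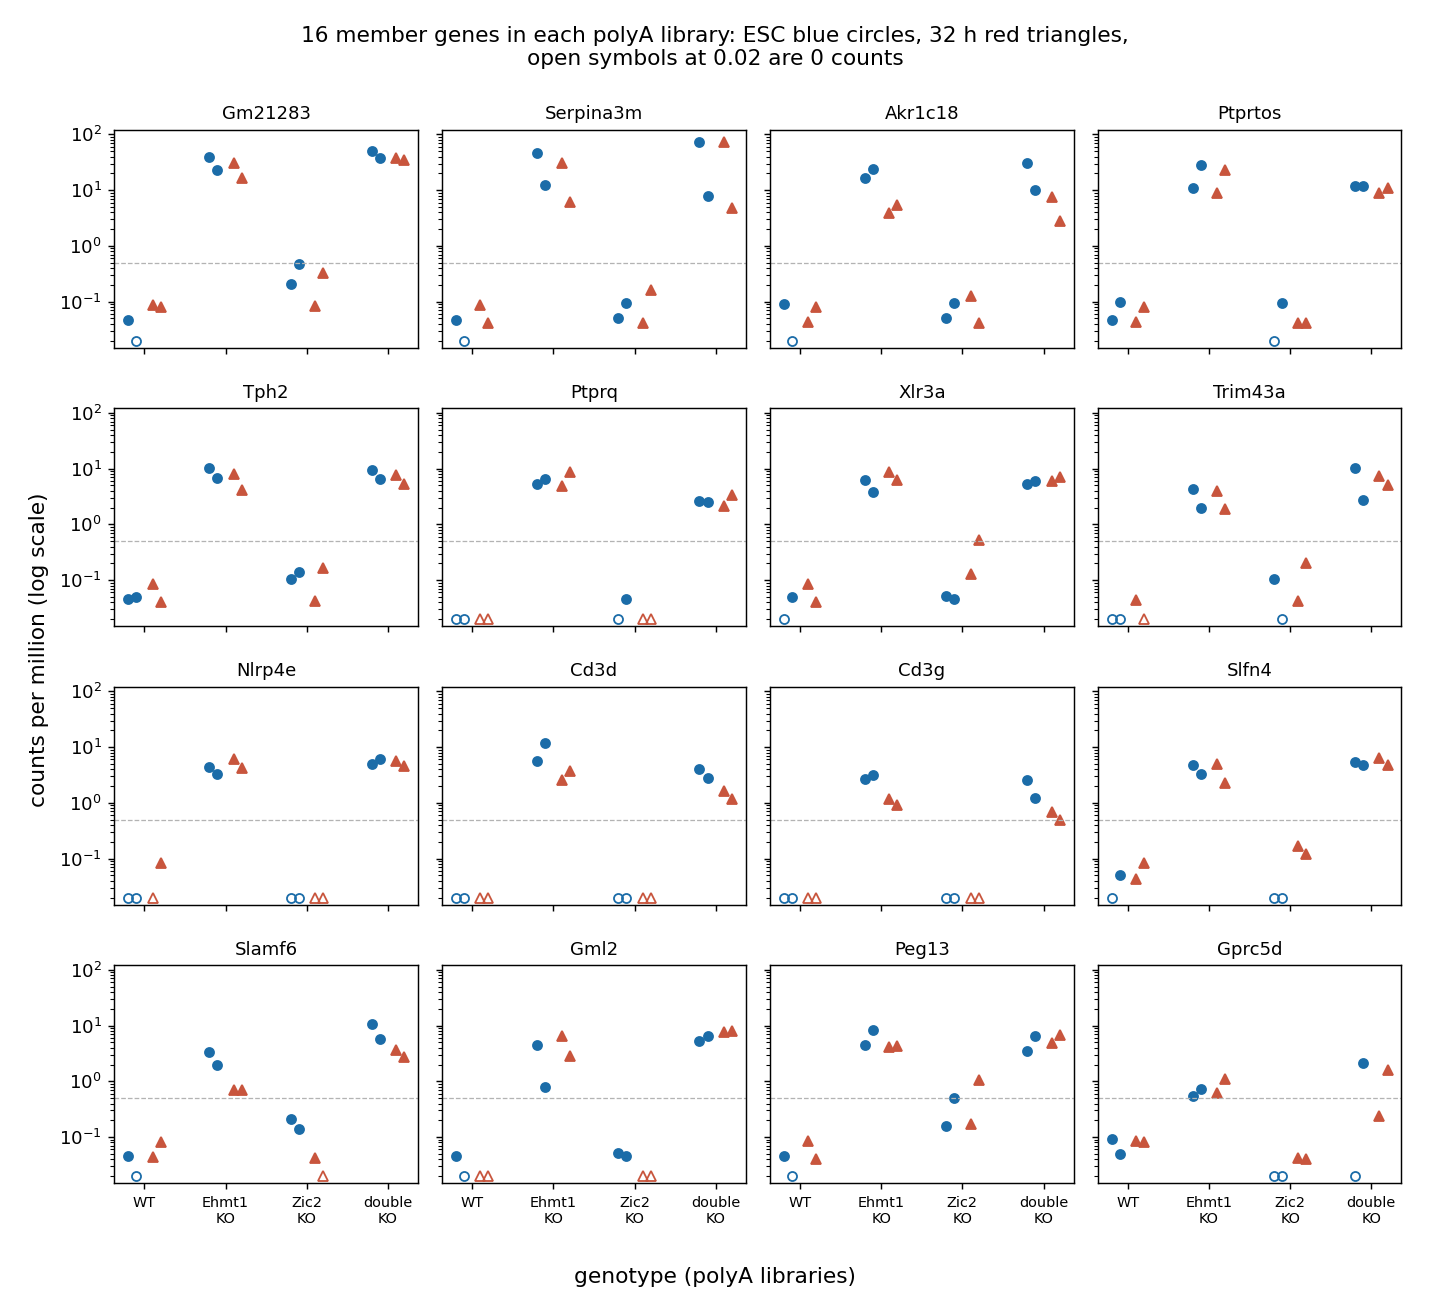
CPM (y axis, log scale) of 16 members in each polyA library by genotype (x axis), ESC as circles and 32 h as triangles, with the dashed line at 0.5 CPM and open symbols for 0 counts. Most points lie below the line in WT and Zic2 KO and above it in Ehmt1 KO and double KO. In Zic2 KO clone 2, Peg13 (0.510 and 1.07 CPM) and, at 32 h, Xlr3a (0.533 CPM) lie above it. In double KO, Gprc5d in clone 1 and, at 32 h in clone 2, Cd3g (0.491 CPM) lie below it. Serpina3m shows the gap between clones.

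In the metabolic group 13 of 14 members rose at each stage (19.0% of all genes tested rose at ESC and 20% at 32 h). Akr1c18, an enzyme that reduces progesterone, was at 30.8 and 10.2 CPM in double KO ESC and 7.44 and 2.76 at 32 h, against 1 to 3 counts per Zic2 KO library (log2 difference 8.03 ± 0.87 SE at ESC, adjusted p = 2.7e-05, and 5.81 ± 0.87 at 32 h, adjusted p = 0.00033). Acsm4, a medium-chain acyl-CoA synthetase, was steadier at 4.83, 6.19, 6.92 and 6.42 CPM. Cyp2c69, a cytochrome P450, was the member that did not pass: it had 5 and 5 counts in Zic2 KO ESC, 8 and 8 at 32 h, and 0.302 to 1.29 CPM in double KO (log2 difference 1.64 ± 0.70 SE, adjusted p = 0.088 at ESC, and 1.21 ± 0.63, adjusted p = 0.15 at 32 h). At 32 h its sign turned without double KO clone 1 (-0.18).

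All 9 neural and sensory genes rose at both stages, as did all 4 epithelial genes (19.0% of all genes tested rose at ESC and 20% at 32 h). Tph2, which makes the serotonin precursor in neurons, was at 9.34, 6.49, 7.61 and 5.21 CPM in double KO against 1 to 4 counts per Zic2 KO library, a 65.3-fold ratio at ESC and 62.1-fold at 32 h. Ptprq, a receptor phosphatase of inner ear hair cells, had 1 count in 1 of 4 Zic2 KO libraries and 2.15 to 3.32 CPM in double KO. Sst, the peptide hormone somatostatin, was near the lower limit at 0.549 to 1.18 CPM and still passed at ESC (edgeR, adjusted p = 0.0021). Its log2 difference of 6.92 ± 1.27 SE rests on 0 Zic2 KO counts at that stage and so depends on the prior count. On summed counts double KO was at least 9.04-fold higher, with 3 counts in place of 0. Clca2, an epithelial chloride channel regulator, was higher in clone 2, at 11.5 against 2.66 CPM at ESC.

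Among the noncoding members 18 of 19 rose at each stage (19.0% of all genes tested rose at ESC and 20% at 32 h). Gm21283 was the highest at 50.2, 37.2, 37.8 and 35.1 CPM in double KO and 0.0844 to 0.464 CPM in Zic2 KO. It lies inside Hydin, a cilium gene, whose mean CPM was 2.34 in WT, 52.4 in Ehmt1 KO, 4.79 in Zic2 KO and 55.6 in double KO, and the strand setting of the counting was not given, so reads of the 2 genes could not be told apart. Likewise Tspan2os overlaps Tspan2 (3.95 CPM in Zic2 KO and 31.4 in double KO), whereas Trappc9 around Peg13 was at 28 and 23.3. Altogether 14 members overlap a gene of the table. Ptprtos, antisense to Ptprt (0.927 CPM in Zic2 KO and 2.86 in double KO), was at 12, 12.1, 9 and 10.7 CPM against 0 to 2 counts. Peg13, an imprinted RNA, had the uneven Zic2 KO values of 0.155, 0.510, 0.169 and 1.07 CPM, higher in the second clone at both stages, and 3.52 to 6.83 CPM in double KO. A330102I10Rik did not pass at either stage (log2 difference 0.74 ± 0.53 SE, adjusted p = 0.30 at ESC), with 0.207 to 0.650 CPM in Zic2 KO and 0.677 to 0.906 in double KO.

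As many as 13 members fell below the 0.5 CPM of the rule in 1 or more double KO libraries: Gprc5d, Golga7b, BC064078, Cdh19, Akr1c12, Cyp2c69, Akr1c21, Olah, Cd3g, Rubcnl, Atp6ap1l, Ly6g6g and 1700047E10Rik. Each reached 0.5 CPM in another double KO library. So all 108 were detected at that level in at least 1 of the 4 libraries.

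How many members moved on withdrawal of 2i in double KO depended on whether the fit paired the clones. The unpaired main fit is given first. At 32 h against ESC Trim43b rose (log2 difference 2.33 ± 0.66 SE, adjusted p = 0.035), and Akr1c18 (-2.06 ± 0.51, adjusted p = 0.018), Slamf6 (-1.42 ± 0.37, adjusted p = 0.023), Minar2 (-1.52 ± 0.41, adjusted p = 0.036) and Cd3g (-1.73 ± 0.47, adjusted p = 0.041) fell, out of 108 (7.17% of genes rose and 7.19% fell). Each of these 5 lost its call without at least 1 of the 4 double KO libraries. Each stage holds the same 2 clones, so the clone number pairs the libraries. With clone as a block 4 members rose (Trim43b, Cuzd1, Septin14 and 1700080O16Rik) and 15 fell (13.7% rose and 13.8% fell), Cd3d now among them (-1.35, adjusted p = 0.0030). Fitted on the 4 double KO libraries alone no member passed, with 2 higher and 10 lower at an unadjusted p under 0.05. The share of all genes at that unadjusted level was not counted, so these counts have no background. Leaving out 1 library gave 1 to 6 members.

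Several members lay next to each other in the genome. With a gap of at most 1 Mb, 28 members fell into 13 clusters of 2 or 3. At 100 kb these were 17 members in 8 clusters, and at 5 Mb 60 members in 25. The same count was not made for other genes silent in WT. Whether members cluster more than those was not tested. Gml and Gml2 on chromosome 15 overlap. Among the closest of the others were Slfn4 and Slfn3 on chromosome 11 (1113 bases apart), Cd3g and Cd3d (chr9:44969572-44987052, 1337 bases apart) and Xlr4a and Xlr3a on the X (3765 bases apart). The coordinates are those of RefSeq genes in GRCm38.p6.

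The 2 clusters with 3 members each were loci of gene families. The AKR1C locus (chr13:4132615-4586543) held the aldo-keto reductases Akr1c18, Akr1c12 and Akr1c21, and of 5 other table genes there 1 was tested and rose at ESC (Akr1c13). Mean CPM in double KO was 12.8 for Akr1c18, 1.12 for Akr1c12 and 1.28 for Akr1c21, and Akr1c12 and Akr1c21 were higher in clone 1 at both stages. The calls of these 2 lost significance without some single libraries (Akr1c21 adjusted p = 0.093 at ESC without double KO clone 1, Akr1c12 0.12 at 32 h without it). The Ly6 locus (chr15:74770908-74846148) held Ly6g6g, Gml and Gml2, of the family of GPI-anchored surface proteins, with Ly6k as a neighbour that rose. Gml and Gml2 overlap each other and were at 4.83 to 6.34 and 5.28 to 7.89 CPM in double KO, so their reads could not be told apart either. The remaining clusters were Ptprq with Gm5136, Ifi27 with Serpina3m, 4930503E14Rik with 1700047E10Rik, Rnase6 with Gm5622, Mroh2b with C7, Clec2i with BC064078, Trim43a with Trim43b, and Gm5071 with Mageb1. Related genes share sequence, and the files do not show how reads that match more than 1 copy were counted.

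Genes next to the members were counted as well. Within 100 kb of a member lay 388 other table genes, 153 of them silent in WT and 233 tested. At ESC 63 (27.0%) rose and 17 (7.30%) fell in double KO against Zic2 KO, beside 19.0% and 15.2% of all genes, and at 32 h 74 (31.8%) rose and 26 (11.2%) fell, beside 20% and 15.9%. These shares were not tested, since neighbours share loci and overlap members.

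The X chromosome held 14 members (13.0%), against 4.27% of table genes and 5.58% of the genes silent in WT. They were Fthl17f, Sash3, 1700080O16Rik, Gm773, 4930550L24Rik, Gm6812, Xlr4a, Xlr3a, Gm41, Dcaf8l, Gm5071, Mageb1, Prame and H2bfm. Of these, 6 belong to the germline and early embryo group, a part of the 15 in that group. The 6 Magea genes, which are X-linked as well, are not in this count.

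In the ribosomal RNA-depleted libraries the members were compared between Zfp281 KO and WT, again on libraries the rule did not use. The 2 assays differ in RNA selection, so levels are not compared between them. Summed member CPM was 16.3 to 21.5 in the line WT, 56.4 to 72.0 in Zfp281 KO, and 82.9 (ESC), 7.15 (16 h) and 61.2 (32 h) in the line Zfp281_WT. The line Zfp281_WT thus differed from the line WT in both directions by stage. Across members its counts at ESC and 32 h rose with the length of the gene from start to end (Spearman 0.51 and 0.45 over 108 genes, against -0.15 in the line WT at ESC), as a description of those libraries.

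At 16 h, where that line did not stand apart in olfactory receptor genes, most members had higher values in Zfp281 KO. In 77 of the 107 members with a count both KO values lay above both WT values and in 3 below (35.1% and 24.7% of 20500 genes). Without a filter on low counts 26 of 107 passed the test, all higher (11.9% of genes rose and 11.1% fell). A filter on low counts, which a member high in KO passes more easily, left 29 members, and 22 of them rose (15.3% of genes rose and 13.3% fell). Leaving out a library left a group with no replicate, so only the size of the difference is given. The median log2 difference of the members was 2.24 and 2.11 without either KO line. It was 4.31 without the line WT and 1.69 without the line Zfp281_WT (all genes -0.01 to 0.01 in these fits). The set of members changed too, with 36 to 38 passing the filter in these fits against 29 with all libraries.

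Trim43b and Trim43a had the smallest adjusted p at 16 h, and 1700080O16Rik the largest log2 difference among those that rose (4.06). Trim43b was at 0.687 and 0.412 CPM in WT and 3.64 and 3.39 in KO (log2 difference 2.63 ± 0.29 SE, adjusted p = 0.00047), and Trim43a at 0.5 and 0.247 against 2.56 and 2.94 (2.83 ± 0.34, adjusted p = 0.00068). Peg13 rose less, from 1.22 and 1.26 to 4.10 and 3.53 CPM (1.56 ± 0.23, adjusted p = 0.0019). Akr1c18 was at 0.344 and 0.0550 CPM in WT and 1.86 and 2.38 in KO (3.38 ± 0.52, adjusted p = 0.0025). 4933408N05Rik, a noncoding RNA, was at 0.187 and 0.0275 CPM against 1.23 and 1.19 (3.45 ± 0.56, adjusted p = 0.0028). The other members that rose were 9430018G01Rik, Hus1b, 1700080O16Rik, Tgm5, H2bfm, Hepacam, Cd3d, Gprc5d, Igbp1b, Dcaf8l, Septin14, Tnfsf4, 4930550L24Rik, Mgl2, Abcb11, Slfn3 and Kcnj16, by 1.65 to 4.06 on the log2 scale. Cd3d lost its call without the second KO library (adjusted p = 0.066).

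The WT lines themselves differed at 16 h in some of the highest members. Gm21283 was at 2.03 CPM in the line WT and 0.137 in Zfp281_WT, Ptprtos at 1.56 and 0.192, and Xlr3a at 1.56 and 0. In KO Gm21283 was at 14 and 10.4 CPM, above both lines, and did not pass (log2 difference 3.49, adjusted p = 0.15), and neither did Ptprtos (2.57, adjusted p = 0.10). Against 1 WT line alone, assumed to vary like KO, the log2 difference of Gm21283 was 2.55 (the line WT) or 6.36 (Zfp281_WT). Xlr3a and its neighbour Xlr4a were nearly absent from the line Zfp281_WT at all 3 stages (0 to 0.0553 and 0 to 0.0402 CPM) and present in the line WT (1.28 to 2.63 and 0.423 to 0.937 CPM), although Zfp281_WT had the higher summed member level at ESC and 32 h. The line Zfp281_WT was thus low for this X-linked pair in every stage sequenced.

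At ESC 80 members passed the filter and 4 rose in Zfp281 KO, with none lower (8.5% of genes rose and 5.3% fell). In 25 of 108 members both KO values lay above both WT values and in 6 below (20.2% and 27.5% of genes). Gm21283 was at 1.20 and 0.719 CPM in WT and 9.84 and 8.78 in KO (log2 difference 3.26 ± 0.58 SE, adjusted p = 0.012), and Ptprtos at 1.17 and 0.719 against 5.82 and 6.45 (2.71 ± 0.53, adjusted p = 0.012). Ces2e, a carboxylesterase, was at 0.835 and 1.38 CPM against 3.62 and 4.79 (2.04 ± 0.42, adjusted p = 0.013), and Akr1c18 at 0.195 and 0.442 against 1.93 and 2.12 (2.81 ± 0.64, adjusted p = 0.020). With the line Zfp281_WT included, the median member was lower in KO by 0.52 on the log2 scale (median of all genes -0.04). Summed member CPM at ESC was 82.9 in that line, 16.3 in the line WT and 56.4 and 57.8 in KO. This median and the counts of values above or below both WT lines are not given without Zfp281_WT, so they show no direction against the line WT. No member passed once either KO library was left out, with 7 and 6 higher at an unadjusted p under 0.05. The share of all genes at that unadjusted level was not counted. Without the line Zfp281_WT at both stages, which leaves 1 WT library per stage that is assumed to vary like the KO group, 23 of 49 members that passed the filter rose and none fell (16.9% and 16.7% of genes). Those 49 are not the 80 above: with that line gone, members pass mainly where KO is high, so this count is no support for a direction of the members.

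At 32 h 9 members rose and none fell of 80 (16.6% of genes rose and 11.9% fell). With the line Zfp281_WT included, both KO values lay above both WT values in 27 of 108 and below in 7 (21.8% and 35.6% of genes). The 4 genes of ESC were among them: Gm21283 was at 2.32 and 0.402 CPM in WT against 14.6 and 14 in KO (3.42 ± 0.54, adjusted p = 0.0034), Ptprtos at 1.39 and 0.281 against 5.83 and 5.01, Ces2e at 0.241 and 0.643 against 1.70 and 1.73, and Akr1c18 at 0.151 and 0.402 against 1.15 and 1.97. New to the calls were Trim43a (0.211 and 0.201 against 2.46 and 3.07 CPM, 3.85 ± 0.67, adjusted p = 0.0025), Trim43b (0.121 and 0 against 2.19 and 2.01), Hus1b, a paralog of a checkpoint clamp subunit (0.302 and 0.281 against 1.97 and 2.5), Slfn3 (0.121 and 0.121 against 0.95 and 0.952) and 4933408N05Rik (0.0905 and 0.402 against 2.39 and 1.30). Without KO replicate 1 or 2 the count was 3 or 4, Trim43a and Ces2e among them each time. Without the line Zfp281_WT at both stages 29 of 49 rose and none fell (24.7% and 23.5% of genes), with the same limit of a smaller set. The test of the difference between the 32 h and ESC effects passed for no member (1.95% of genes were higher and 2.2% lower). In it 1 member was higher and 0 lower at an unadjusted p under 0.05, a level at which all genes were not counted.

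**Figure D4:**
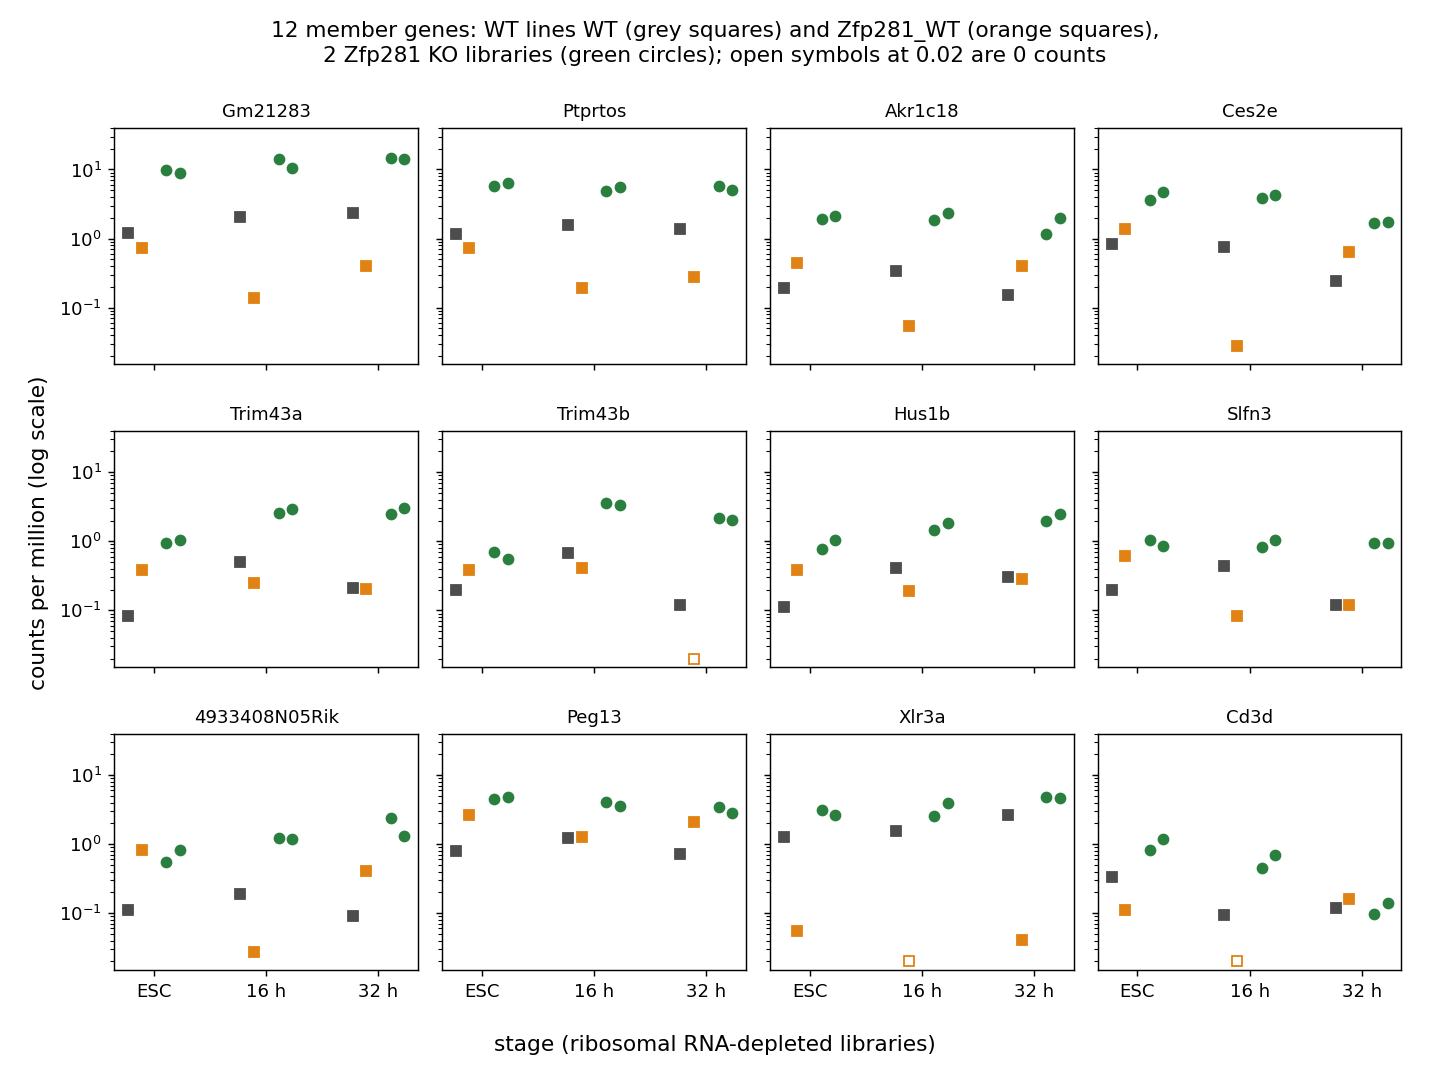
CPM (y axis, log scale) of 12 members in each ribosomal RNA-depleted library by stage (x axis): WT lines as squares, Zfp281 KO as circles, open symbols for 0 counts. Gm21283 and Ptprtos lie well above both WT lines in all 6 KO libraries, while Xlr3a is near 0 in the line Zfp281_WT only.

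At 0.5 CPM or more in all 6 Zfp281 KO libraries were 19 members: 4930550L24Rik, 4933408N05Rik, 9430018G01Rik, Akr1c18, Alppl2, Ces2e, Dcaf8l, Gm21283, H2bfm, Hepacam, Hus1b, Mgl2, Peg13, Ptprtos, Septin14, Slfn3, Trim43a, Trim43b and Xlr3a. By stage both KO libraries reached it for 24 (ESC), 25 (16 h) and 22 (32 h) members. In the line WT 7, 9 and 5 members reached it at these stages, and in the line Zfp281_WT 54, 1 and 39, more than in KO at ESC and 32 h. Serpina3m and Nlrp4e were at 0.175 to 0.458 and 0 to 0.197 CPM in Zfp281 KO. Ptprq and Mroh2b were at 0 to 0.141 CPM there and at 1.85 to 2.38 CPM in the line Zfp281_WT at ESC and 32 h.

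In ribosomal RNA-depleted WT no member changed between ESC and 32 h (15% of genes rose and 11% fell; 0 by edgeR and by DESeq2), with 0 higher and 1 lower at an unadjusted p under 0.05 in edgeR. The same lines were used at both stages, and with line as a block Xlr3a rose (1.06, adjusted p = 0.018) and Ces2e fell (-1.33, adjusted p = 0.011), and no other member passed (23.4% of genes rose and 16.3% fell). Without the line Zfp281_WT 2 rose and 3 fell of 49 (21.5% and 22.7%), each stage then being 1 WT library.

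Genes of the silencing pathways were counted from fixed lists that hold no member. Of 16 H3K9 methylation and heterochromatin genes 4 rose and 1 fell in double KO against Zic2 KO at ESC, and 2 rose and 5 fell at 32 h, with Ehmt1 itself lower at both (-1.78 ± 0.17 and -2.33 ± 0.17). Its partner Ehmt2 was at -0.20 (adjusted p = 0.46) and -0.04 (adjusted p = 0.89). Of 13 genes of PRC1.6 and E2F6, a repressor complex of germline genes, 1 rose and 5 fell at ESC, E2f6 among them (-0.46 ± 0.13, adjusted p = 0.016), and 2 rose and 4 fell at 32 h. Of 11 DNA methylation genes 4 rose and 1 fell at ESC, the methyltransferase Dnmt3b among the former (1.04 ± 0.18, adjusted p = 0.00097), and 2 rose and 1 fell at 32 h, where Dnmt3b was at -0.48 ± 0.18 (adjusted p = 0.051; 657 and 744 CPM in double KO, 961 and 935 in Zic2 KO). Of 33 germline genes tested, known from meiosis and the piRNA pathway, 8 rose and 5 fell at ESC and 7 rose and 8 fell at 32 h. For all genes tested the shares were 19.0% higher and 15.2% lower at ESC and 20% and 15.9% at 32 h.

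Markers of other cell types were counted as well. In double KO against Zic2 KO, 3 of 13 primitive endoderm genes rose and 1 fell at ESC, and 5 rose and 1 fell at 32 h; 2 of 11 trophoblast genes rose and 1 fell at ESC, and 6 rose at 32 h. Of 7 neural genes 4 rose and 2 fell at ESC, and 3 rose and 2 fell at 32 h. Summed CPM in double KO and Zic2 KO was 256 to 328 and 140 to 208 for primitive endoderm, 71.1 to 101 and 34.2 to 86.6 for trophoblast, and 214 to 384 and 96.1 to 209 for neural genes. Fibroblast genes (2 of 7 rose and 1 fell at ESC, 2 rose at 32 h) summed to 139 to 213 and 148 to 185 CPM, and muscle genes (2 of 3 rose at ESC, none changed at 32 h) to 8.53 to 19.11 and 5.10 to 16.2. Of 5 blood genes tested 2 rose and 1 fell at each stage, and of 10 pluripotency genes 2 rose and 1 fell at ESC and 6 rose at 32 h. Of the primitive endoderm list Pdgfra (2.40 ± 0.38 at ESC, adjusted p = 0.0005) and Afp (6.30 ± 1.46, adjusted p = 0.0074) rose at both stages and Gata4 fell at both (-2.87 ± 0.48 at ESC, adjusted p = 0.00071), while Ttr was at 0 to 0.08 CPM in double KO. Of the neural list Nes (1.97 ± 0.19 at ESC, adjusted p = 1.2e-05) and Tubb3 (2.05 ± 0.16, adjusted p = 2.4e-06) rose at both stages and Sox1 (-3.06 ± 0.86, adjusted p = 0.016) and Pax6 fell at both, while Neurog2 was at 0.05 to 0.10 CPM. The part of these lists in the members' values was not tested, and in bulk libraries more cells of a type and more RNA per cell cannot be told apart.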

How the data were processed

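The authors deposited tables of raw gene counts, 1 for ESC and 32 h and 1 for 16 h, and per the submitters' processing notes they used edgeR and the mouse build GRCm38 or mm10, with no role named; the sources used here give neither the aligner nor the strand setting. Every column matched 1 of 28 samples, in 14 groups of 2 by title and genotype. The 24116 gene identifiers were matched to RefSeq symbols (24061 matched). The members, the lists and the tests were chosen with earlier results of these data known. Any member could be named, apart from 1 that is not reported here. Given in full were up to 12 with the highest Ehmt1 KO level, those within 1 Mb of another, up to 5 with the smallest adjusted p per test, those called in Zfp281 KO, those at 0.5 CPM in Zic2 KO or below it in double KO, and the 5 nearest each side of the threshold; up to 4 genes per list were named. Overlapping genes and some marker genes were named after their values were seen. Counts were tested with edgeR 4.0.16 (R 4.3.3): genes kept by filterByExpr (minimum count 10, total 15), TMM scaling, quasi-likelihood test, Benjamini-Hochberg adjustment over all genes tested, threshold 0.05. PolyA libraries, ribosomal RNA-depleted ESC and 32 h libraries, and 16 h libraries were fitted separately, each fit with all its groups. DESeq2 1.42.0, its size factors, no filter, fewer groups, a replicate block and leaving out each library were alternatives. The fit was run on simulated counts with 200 changed genes. These had the same spread for every gene and folds far below those of the members. The run therefore does not cover members near 0 counts in 1 group. Each replicate is another line, so p-values measure the spread between lines. The main fits of ESC and 32 h took libraries of the same line at both stages as independent. For tests between genotypes this can make p-values too small. Between stages, pairing libraries of the same clone called more genes. In double KO 13.7% rose and 13.8% fell with it, against 7.17% and 7.19% without. Scripts in Python 3.11.15 gave CPM, clusters and CpG counts; folds against 0 counts use 3 counts over the group, and ratios over 1 to 3 counts carry exact 95% intervals. Total counts of 18086421 to 36365192 make 1 count 0.0275 to 0.0553 CPM, and these limits cover counting error only. Correlation of clone deviations was 0.53 between stages in double KO and 0.877 in ribosomal RNA-depleted WT, where the number marks the same line.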

Additional observations from a re-analysis of the deposited data

Results flagged for a closer look

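St18, a zinc finger transcription factor of the neural and sensory group, was the single member whose difference between double KO and Zic2 KO changed between stages by a test of that change: the log2 difference at 32 h minus that at ESC was -5.64 ± 1.21 SE (adjusted p = 0.033, edgeR; 1.17% of all genes fell and 1.86% rose in this test). St18 had 0 and 0 counts in the Zic2 KO libraries at ESC and 5 and 2 at 32 h, and was at 2.98 and 3.29 CPM in double KO at ESC and 1.88 and 1.66 at 32 h. On summed counts double KO was at least 42.6-fold higher at ESC, with 3 counts in place of 0, and 12.2-fold higher at 32 h. The fitted size of the change depends on the prior count given to the 0 counts.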

How the results depend on the processing

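Of the counts under alternatives 24 moved by over 1.5 times and 43 did not. Shares of all genes called moved between settings too. With stage in double KO 7.17% rose in the main fit and 13.7% with the replicate block. The counts of called members below stand without such shares, so they show no change particular to the members. The member count was 25, 178, 183 and 47 with 0 or 5 WT counts and 0.25 or 1 CPM, and 108 with TMM-scaled CPM. Double KO against Zic2 KO gave 101 to 106 members at 32 h and 96 to 101 at ESC without 1 library. Clone numbers of these genotypes only share a number (correlation -0.064): as a replicate block they gave 106 at both stages. The stage count in double KO (5) was 19 with the replicate block, 0 with only the groups compared, and 1 to 6 without 1 library. In ribosomal RNA-depleted WT the stage count (0) was 2 with the replicate block, 0 to 3 without 1 library and 5 without the line Zfp281_WT, a choice made after seeing the data. For Zfp281 KO the count at ESC (4) was 7 with DESeq2 (5 higher, 2 lower), 0 to 8 without 1 library and 23 without that line; at 32 h (9) it was 3 to 10 and 29; at 16 h (22) it was 12 to 32, with 16 by DESeq2. No paired analysis was possible for Zfp281 KO because the WT lines carry no replicate number. Of single values, 736 kept their call, 59 lost it, 17 gained it, 2 cluster counts moved and 1 reversed: Cyp2c69 at 32 h was -0.18 without double KO clone 1 and 1.91, past the threshold, without clone 2. Causes of these moves were not tested. Levels in WT and Zic2 KO are set by a few counts.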
